A study of Rattus norvegicus with 6 samples.

Results

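The genes described here act in G2 and mitosis, the phases in which a cell checks its copied DNA, condenses its chromosomes and divides. They were chosen by name: 37 genes were listed, and every probe set whose platform annotation gave one of these symbols and no other was taken. The array held 47 such probe sets for 33 of the 37 genes, out of 14217 genes with a symbol of their own. The annotation used here gave Cdc25c, Nek2, Tpx2 and Ncapg as the only symbol of no probe set, so they were not analysed here. All 47 probe sets lay above the background signal of 22.8 on all 6 arrays, and all 33 genes passed the filter on low signals, out of 9910 genes tested.

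RNA came from neuronal progenitor cells, which divide and later form neurons and glia, prepared from the cerebral cortex of rat embryos at day E15.5. All cultures grew on fibronectin with bFGF at 20 ng/ml, a growth factor that keeps such cells dividing. One group received 1 µM corticosterone, which in rodents is the chief glucocorticoid, for 48 h (3 samples), and the other received the solvent dimethyl sulfoxide, called vehicle here, for the same time (3 samples). Each sample was hybridised to 1 Affymetrix array, and the samples formed 3 couples of 1 corticosterone and 1 vehicle sample. The available descriptions do not state how many embryos or cultures went into each sample, so the spread behind the p-values may be technical. That spread is how far the differences between corticosterone and vehicle disagree among the 3 couples. The test used, limma with eBayes, also pools it with the spread of other probe sets (median prior degrees of freedom 9.16). The p-values therefore rest partly on other probe sets. Precision is limited by having 6 arrays. The comparison asks whether the hormone changed the transcripts of the dividing cell.

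Entry into mitosis is driven by the kinase CDK1 bound to cyclin A or B, and CDC25 phosphatases switch this kinase on. The spindle checkpoint then holds the cell until every chromosome is attached to the spindle, after which the anaphase-promoting complex has cyclin B destroyed. Transcripts of this programme rise in G2 and are low in cells that have left the cycle, so in a bulk sample a lower signal could come from fewer cycling cells or from less RNA per cell, and these cannot be told apart. In the developing cortex the programme runs in the progenitors and not in the neurons they give rise to.

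In human and mouse cells many genes of this programme are known to carry a CHR (cell cycle genes homology region), read by the DREAM and B-MYB-MuvB-FOXM1 complexes, together with CCAAT boxes read by NF-Y. RefSeq promoters of rat assembly GRCr8, from 250 bases before to 50 bases after the annotated start, were matched by symbol for 28 of the 33 genes. The letters of a CHR, TTTGAA or TTCGAA on either strand, stood in 20 of the 28 (71.4%), against 19.7% of all 33469 promoters of the table and 14.3% of the promoters of genes on this array. CCAAT on either strand stood in 23 of the 28 (82.1%), against 37.5% of all promoters, and both kinds of letters in 18 (64.3%), against 7.95%. The 2 kinds of letters overlapped at 2 places, in Cdca8 and Mki67. Such a match is a description of letters in the window and shows no binding. The promoters below belong to Cdc25b, the member whose signal passed the test, and to Cdk1 and Ccnb2, a kinase and cyclin pair whose signals did not, with the letters of the CHR and the CCAAT box in capitals, 5′ to 3′ on the strand of the gene.
Cdc25b (GRCr8, chr3:138859923-138860222, plus strand): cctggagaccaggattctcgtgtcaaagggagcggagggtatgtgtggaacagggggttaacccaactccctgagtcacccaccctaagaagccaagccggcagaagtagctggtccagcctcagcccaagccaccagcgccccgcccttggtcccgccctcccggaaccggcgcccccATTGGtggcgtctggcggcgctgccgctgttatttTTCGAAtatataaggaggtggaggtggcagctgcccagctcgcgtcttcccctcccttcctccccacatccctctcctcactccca
Cdk1 (GRCr8, chr20:19265043-19265342, plus strand): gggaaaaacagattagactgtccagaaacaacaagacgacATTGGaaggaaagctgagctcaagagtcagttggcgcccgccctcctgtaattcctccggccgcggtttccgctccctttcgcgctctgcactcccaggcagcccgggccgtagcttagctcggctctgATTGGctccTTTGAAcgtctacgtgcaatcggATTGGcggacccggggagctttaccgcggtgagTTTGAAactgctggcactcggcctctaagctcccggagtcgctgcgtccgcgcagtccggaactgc
Ccnb2 (GRCr8, chr8:79981609-79981908, minus strand): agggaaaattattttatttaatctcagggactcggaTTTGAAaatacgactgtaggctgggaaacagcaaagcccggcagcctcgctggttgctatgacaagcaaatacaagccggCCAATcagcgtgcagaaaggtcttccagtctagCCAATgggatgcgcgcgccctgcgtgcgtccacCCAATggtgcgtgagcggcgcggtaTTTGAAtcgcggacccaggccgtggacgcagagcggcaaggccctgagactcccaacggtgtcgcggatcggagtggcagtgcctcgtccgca
In Cdc25b the CHR letters began 36 bases before the start and the CCAAT letters 71 bases before it. Cdk1 held CHR letters at 72 and 16 bases before the start, and Ccnb2 at 214 and 43 bases before it. Log2 fold changes of the 20 genes with CHR letters ran from −0.13 to 0.48 with a median of 0.07, and those of the 8 without ran from −0.16 to 0.13 with a median of 0.02.

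Marker genes of the labelled cell type were present. All 11 neural progenitor markers measured, among them Nes, Sox2, Pax6 and Fabp7, lay above background on all 6 arrays. Of 6 microglial genes, Itgam and Ptprc lay at or under it on all 6, Aif1, Cd68 and Csf1r lay above it on all 6 and Cx3cr1 on 5. Summed signals of several marker lists moved with the groups or the couples, and their part in the results below was not tested. The progenitor sum was higher with corticosterone in all 3 couples (80104 to 88775, against 67777 to 83532 with vehicle). Of that list Nes, Vim, Slc1a3, Notch1 and Sox1 were higher in all 3 couples and Prom1 was lower in all 3. Sox2, Pax6, Fabp7, Hes1 and Hes5 went both ways. The microglial sum was 246 to 275 with corticosterone and 205 to 225 with vehicle. Csf1r and Cx3cr1 were higher in all 3 couples, while Aif1 was lower in couple 1 and Cd68 in couple 2. The sum of 8 neuronal genes was lower with corticosterone in all 3 couples (7404 to 10939, against 10011 to 10971 with vehicle). Most of it was Map2, which was lower in couples 1 and 2 and higher in couple 3. Tubb3 and Neurod1 were lower in all 3 couples, Snap25 and Rbfox3 higher in all 3, and the rest went both ways. The sum of 5 genes of oligodendrocyte precursors was also lower in all 3 couples (16620 to 23032, against 19944 to 24482 with vehicle). Most of it was Olig1. Pdgfra and Sox10, the latter near background, were lower in all 3 couples, while Olig1, Olig2 and Cspg4 were higher in couple 3. The summed signal of 5 astrocyte genes was 793 to 988 with corticosterone and 240 to 329 with vehicle. Most of it was S100b, at 607 to 746 with corticosterone and 129 to 199 with vehicle. Gfap, S100b, Aldh1l1 and Aqp4, the last near background, were higher in all 3 couples. Slc1a2, also near background, was lower in couple 1 and higher in couples 2 and 3. The summed signal of 8 meningeal and fibroblast genes was 2729 with corticosterone and 1612 with vehicle in couple 2, against 829 and 340 in couple 1 and 527 and 450 in couple 3. Lum, of that list, had signals of 143 and 136 in couple 2 and of at most 2.66 on the other arrays. For Actb the 3′ probe set gave 1.76 to 2.03 times the signal of the 5′ one, a measure of how intact the RNA was, with corticosterone and 1.55 to 2.12 times with vehicle.

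After 48 h of corticosterone the fold changes of 32 of the 33 mitotic genes did not pass the test and were small, and the phosphatase gene Cdc25b rose. By count 1 gene rose, 0 fell and 32 did not pass (limma with the couple as a block, adjusted p under 0.05). Over all 9910 genes tested 11.7% rose and 7.77% fell. Before adjustment, 4 members (Cdc25b, Hmmr, Nusap1 and Prc1) were higher and 0 lower at p under 0.05. At that p in limma, 1862 of all 9910 genes tested were higher and 1641 lower. The median log2 fold change, corticosterone over vehicle on the log2(signal + 28.6) scale, was 0.04 over the members and −0.0021 over all genes tested. Log2 fold changes of the members ran from −0.16 for Aurka to 0.48 for Cdc25b, and 21 were above 0 and 12 below. With each array centred on its median, 7 members were above 0 and 26 below, with a median of −0.06. Then 1 rose (Cdc25b) and 1 fell (Birc5, limma adjusted p just under 0.05), while over all genes tested 828 rose and 1811 fell, where the authors' scaling gave 1158 and 770. The median size of the change, without its sign, was 0.09 for the members and 0.15 for all genes tested.

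A p that misses the threshold does not show that a level was the same, so the 95% interval of each fold change is given too. For 32 of the 33 genes the whole interval lay between −0.5 and 0.5 on the log2 scale, which is 0.707 to 1.41-fold. This held for 6642 of all 9910 genes (67.0%). The median standard error was 0.07 for the members and 0.10 for all genes. Apart from Cdc25b, the intervals reached down to 0.794-fold, for Aurka, and up to 1.36-fold, for Hmmr. Larger changes in either direction lay outside the 95% intervals of the brightest probe sets of these 32 genes, under the authors' scaling. Intervals of dimmer probe sets of the same genes reached further, down to 0.675-fold for Foxm1 and up to 1.75-fold for Cdc20. Median centring moved the log2 fold change of Aurka from −0.16 to −0.26. All corticosterone signals lay above all vehicle signals for 5 members, Cdc25b, Ccnb2, Nusap1, Hmmr and Prc1, where 14.8% of all genes tested did so. For 0 members did all corticosterone signals lie below all vehicle signals, where 11.4% of all genes did so.

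**Figure D1:**
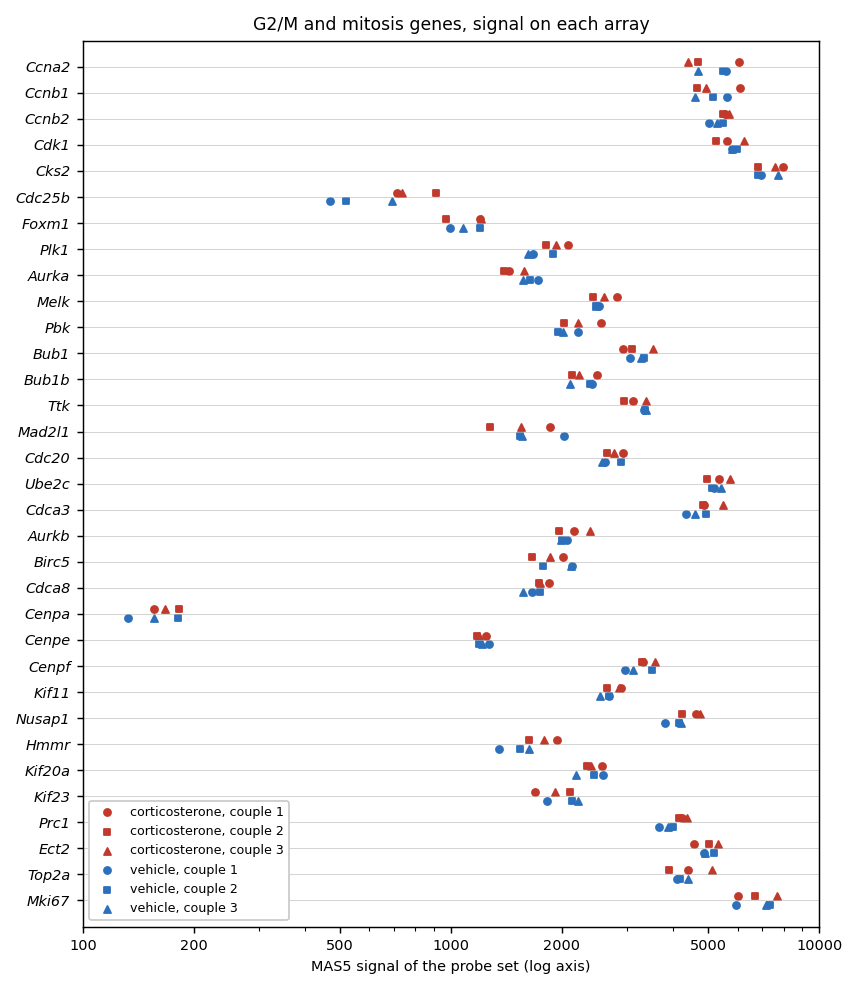
MAS5 signal (log axis) of the 33 G2/M and mitosis genes on each array, 1 row per gene, with corticosterone arrays in red above vehicle arrays in blue and 1 marker shape per couple. The red and blue points of a gene overlap in all rows but those of Cdc25b, Ccnb2, Nusap1, Hmmr and Prc1, where each red point lies right of each blue point.

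Among the cyclins, CDK1 and its regulators, 1 of 6 genes rose and 5 did not pass. The gene that rose was Cdc25b, a phosphatase that removes inhibitory phosphates from CDK1 at the start of mitosis. Its probe set had signals of 715, 909 and 736 on the corticosterone arrays of couples 1, 2 and 3, and of 469, 519 and 689 on their vehicle arrays. Each corticosterone value was above all 3 vehicle values, and the gap within a couple was wide in couples 1 and 2 and narrow in couple 3. The log2 fold change was 0.48 ± 0.12 (standard error; 95% interval 0.21 to 0.75; limma adjusted p = 0.022), or 1.40-fold, and the differences within couples 1, 2 and 3 were 0.58, 0.78 and 0.09. The call did not hold without couple 1 or 2 (limma adjusted p = 0.079 and 0.22), without the couple as a block (0.18), without the filter on low signals (0.073) or without the intensity trend (0.12).

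Cdk1 itself, the mitotic kinase, had signals of 5614, 5256 and 6246 with corticosterone and of 5806, 5962 and 5791 with vehicle. The groups overlapped, and the log2 fold change was −0.04 (95% interval −0.19 to 0.11; limma adjusted p = 0.74). Ccnb1, the main cyclin B, had signals of 6077, 4660 and 4928 with corticosterone and of 5623, 5154 and 4586 with vehicle (0.02, limma adjusted p = 0.86). For Ccna2, the cyclin of S phase and early mitosis, the signals were 6072, 4693 and 4410 with corticosterone and 5578, 5489 and 4685 with vehicle (−0.06, limma adjusted p = 0.61). In both cyclins couple 1 was highest in both groups. Ccnb2, the second cyclin B, had 5558, 5488 and 5682 with corticosterone and 5023, 5480 and 5289 with vehicle, a log2 fold change of 0.08 (limma adjusted p = 0.39). Its groups did not overlap, but in couple 2 the difference was only 0.0020 on the log2 scale. Cks2, a small subunit bound to CDK1, had a log2 fold change of 0.06.

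Of the 5 genes for the mitotic transcription factor and kinases 0 passed. Foxm1, which switches on many genes of this set, had signals of 1200.1, 967 and 1208 with corticosterone and of 995, 1197 and 1076 with vehicle. Its 2 groups overlapped almost fully (log2 fold change 0.04, 95% interval −0.19 to 0.27; limma adjusted p = 0.84). Plk1, the kinase of spindle and cytokinesis control, had 2075, 1814 and 1925 with corticosterone and 1673, 1886 and 1615 with vehicle (0.17, limma adjusted p = 0.21). It was higher in couples 1 and 3 and slightly lower in couple 2. Aurka, the spindle pole kinase, had 1437, 1389 and 1582 with corticosterone and 1721, 1638 and 1566 with vehicle. It had the most negative value of the 33 genes, at −0.16 ± 0.08 (standard error; limma adjusted p = 0.21), with differences of −0.26, −0.23 and 0.01 in couples 1, 2 and 3. Melk and Pbk, kinases of dividing progenitor cells, had log2 fold changes of 0.07 and 0.13.

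Of the 7 genes of the spindle checkpoint and the anaphase-promoting complex 0 passed, with log2 fold changes from −0.13 to 0.13. They include the checkpoint kinases Bub1 (−0.02), Ttk (−0.10) and the related Bub1b (−0.01). The checkpoint protein Mad2l1, which holds back the anaphase-promoting complex, had signals of 1854, 1273 and 1546 with corticosterone and of 2022, 1540 and 1554 with vehicle. The value was lower in each couple, by 0.12, 0.27 and 0.0068 on the log2 scale, and did not pass (−0.13, limma adjusted p = 0.28). Cdc20, the activator of the complex that Mad2l1 restrains, had 2923, 2657 and 2772 with corticosterone and 2623, 2899 and 2577 with vehicle (0.04, limma adjusted p = 0.73). The ubiquitin-conjugating enzyme gene Ube2c, which works with that complex, had 0.02, and Cdca3, a gene for mitotic entry, had 0.13.

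Of the chromosomal passenger complex, which corrects faulty spindle attachments, and the kinetochore, 0 of 6 genes passed. Birc5, the passenger subunit survivin, had signals of 2012, 1661 and 1855 with corticosterone and of 2126, 1782 and 2112 with vehicle. It was lower in all 3 couples, by 0.08, 0.10 and 0.18 on the log2 scale, but did not pass (−0.12, limma adjusted p = 0.27). Its groups overlapped, and couple 2 was lowest in both of them. The passenger kinase gene Aurkb and the subunit gene Cdca8 had log2 fold changes of 0.10 and 0.10. Cenpa, the histone variant of centromeres, and the kinetochore proteins Cenpe and Cenpf had 0.09, −0.02 and 0.09. Cenpa had signals of 156 to 183 with corticosterone and of 133 to 182 with vehicle, and its interval, −0.23 to 0.41, was wider than those of the other 5.

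All 3 genes for spindle motors and microtubule-binding proteins had values above 0, and 0 passed. Hmmr, a spindle protein, had signals of 1940.0, 1631 and 1793 with corticosterone and of 1350.1, 1541 and 1623 with vehicle. Each corticosterone value exceeded each vehicle value, and the log2 fold change was 0.25 ± 0.09 (standard error; 95% interval 0.05 to 0.44; limma adjusted p = 0.092). Nusap1, which binds and bundles spindle microtubules, had 4634, 4231 and 4757 with corticosterone and 3802, 4170 and 4217 with vehicle (0.16, limma adjusted p = 0.14). Couple 1 held the widest gap in both genes. The motor gene Kif11 had 0.09.

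For the 4 cytokinesis genes the values went both ways, and 0 passed. Prc1, which crosslinks microtubules of the midzone, had signals of 4243, 4159 and 4373 with corticosterone and of 3665, 4000.4 and 3881 with vehicle. The groups did not overlap, with a log2 fold change of 0.15 ± 0.06 (standard error; limma adjusted p = 0.14). Kif23, a motor of the same midzone, had 1687, 2099 and 1917 with corticosterone and 1825, 2133 and 2210.1 with vehicle, lower in each couple (−0.11, limma adjusted p = 0.33). Kif20a, another midzone motor, and Ect2, which activates the contractile ring, had 0.02 and −0.0038.

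Mki67, whose protein coats mitotic chromosomes and serves as the Ki-67 marker of cycling cells, had signals of 6005, 6676 and 7670 with corticosterone and of 5926, 7328 and 7176 with vehicle. Couple 1 was lowest in both groups, and within couples the differences were 0.02, −0.13 and 0.10 (log2 fold change −0.0064, 95% interval −0.14 to 0.13; limma adjusted p = 0.96). Top2a, the topoisomerase that untangles sister chromatids, had 4395, 3917 and 5107 with corticosterone and 4097, 4183 and 4405 with vehicle (0.07, limma adjusted p = 0.54). These 2 genes of chromosome structure did not pass.

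**Figure D2:**
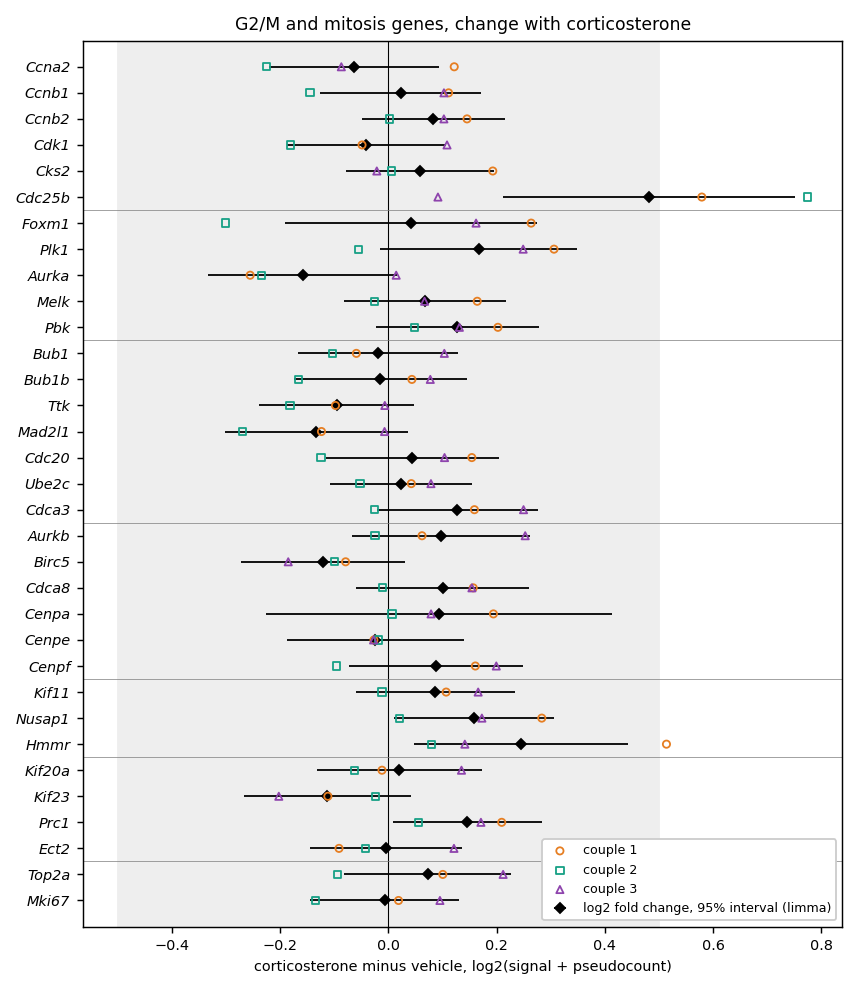
Log2 fold change, corticosterone over vehicle, of the 33 genes with its 95% interval from limma (black diamonds and bars) and the difference in each couple (open markers), grouped by role with thin lines between the groups. The grey band marks −0.5 to 0.5: the interval of Cdc25b reaches 0.75, and those of the other 32 genes lie inside the band.

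Several probe sets stood for 10 of the members, so that a gene could be compared with itself. In 6 of the 10 all probe sets pointed one way, and in 4 (Cdc20, Foxm1, Kif23 and Top2a) they pointed both ways. Of the 47 probe sets 1 rose and 1 fell, against 1751 and 1202 of all 18625 tested. The one that fell was the dimmest of 3 for Mad2l1, with signals of 825, 527 and 581 with corticosterone and of 1051, 748 and 701 with vehicle. It was lower in each couple, with a log2 fold change of −0.36 ± 0.09 (standard error; limma adjusted p = 0.020). The other 2 probe sets of Mad2l1 had −0.13 and −0.05 and did not pass (limma adjusted p = 0.28 and 0.74). The call of the dimmest one did not hold without couple 1 or 2 (limma adjusted p = 0.078 and 0.16), without the couple as a block (0.42) or without the intensity trend (0.081).

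For Hmmr the second probe set had signals of 1278, 1078 and 1234 with corticosterone and of 1263, 1108 and 1138 with vehicle. Its groups overlapped (log2 fold change 0.03, limma adjusted p = 0.84), where those of the first did not. Cdc20 varied most, with 5 probe sets from −0.15 to 0.33, of which 0 passed. Its second brightest had signals of 2293, 1135 and 2084 with corticosterone and of 1339, 1931 and 1727 with vehicle, a difference of 0.76 in couple 1 and of −0.75 in couple 2.

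**Figure D3:**
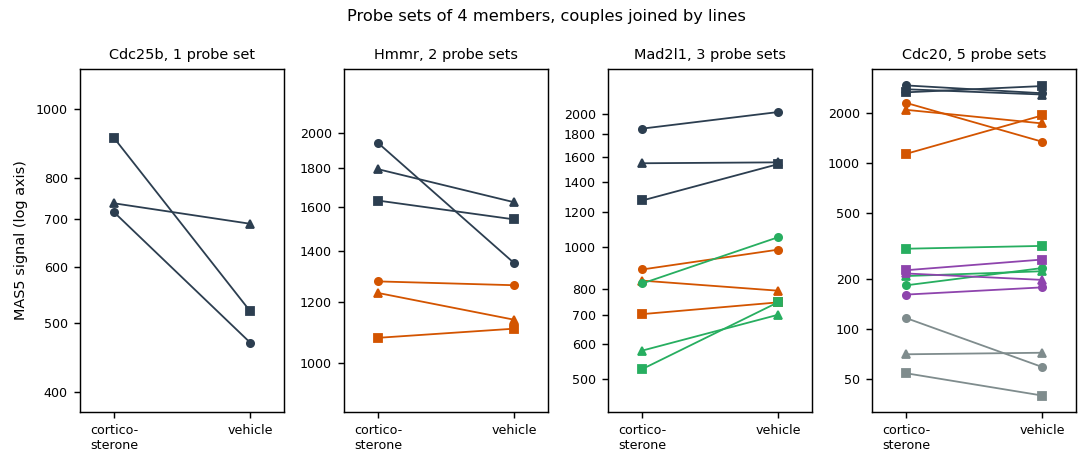
MAS5 signal (log axis) of every probe set of Cdc25b, Hmmr, Mad2l1 and Cdc20, corticosterone left and vehicle right, with 1 colour per probe set, 1 marker shape per couple and lines joining the 2 samples of a couple. All 3 lines of Cdc25b run down to vehicle, while probe sets of Hmmr, Mad2l1 and Cdc20 differ in slope within a gene.

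The couples did not move alike. In couple 1 the corticosterone signal was the higher one for 23 of 33 members and the lower one for 10, with a median difference of 0.11 on the log2 scale. In couple 2 it was higher for 8 and lower for 25, with a median of −0.05. In couple 3 it was higher for 26 and lower for 7, with a median of 0.10. Over all 9910 genes tested the share that was higher was 51.1%, 50.4% and 48.7% in couples 1, 2 and 3, with medians between −0.0073 and 0.0079. Members of one array share its RNA and its scaling, so these counts describe 3 pairs of arrays and are not 33 separate observations. The pattern of higher, lower and higher in couples 1, 2 and 3 held for 14 of the 33 members (42.4%) and for 6.38% of all genes tested.

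After the arrays were centred on their medians, the members were higher for 14, 1 and 25 and lower for 19, 32 and 8 in couples 1, 2 and 3, with medians of −0.04, −0.17 and 0.05. That centring shifts all genes of an array alike, and the medians of all genes were then −0.14, −0.12 and −0.06. With quantile normalization the members were higher for 24, 13 and 27 and lower for 9, 20 and 6. Couple 2 had the smallest number of higher members and couple 3 the largest under all 3 scalings. Couple 2 was also the one in which the meningeal and fibroblast genes had their highest summed signals, in both groups, as given above, and its part in the pattern was not tested. Cdc25b did not follow the medians of the members, with its largest difference, 0.78, in couple 2 and its smallest, 0.09, in couple 3. Higher in all 3 couples were 7 members (21.2%: Cdc25b, Ccnb2, Pbk, Cenpa, Nusap1, Hmmr and Prc1), against 27.7% of all genes tested, and 5 were lower in all 3 (15.2%: Ttk, Mad2l1, Birc5, Cenpe and Kif23), against 27.2%. Without couple 1 the median of the members was 0.021, with 19 above 0 and 14 below, and without couple 3 it was 0.0033, with 17 above and 16 below. Without couple 2 the median of the members was 0.12, with 27 above 0 and 6 below. Then 0 members passed in limma, and 6 were higher and 0 lower at an unadjusted p below the threshold. Over all probe sets tested without that couple, 3894 of 18625 had such a p, in either direction.

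**Figure D4:**
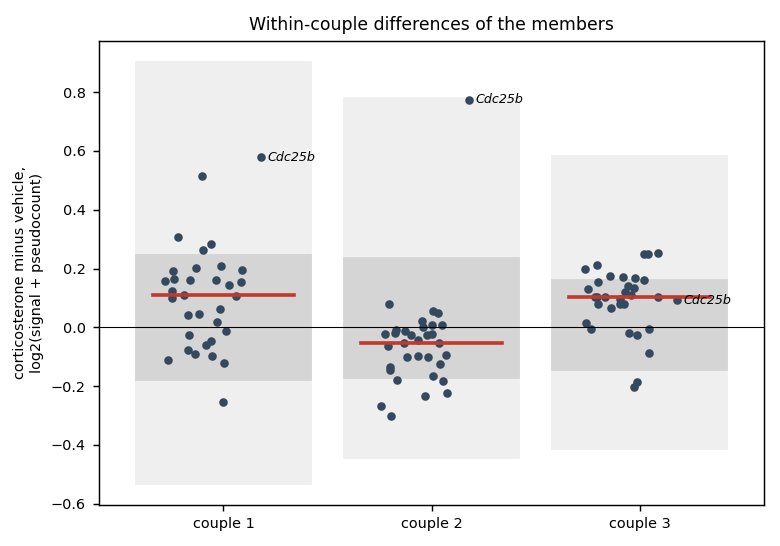
Difference between corticosterone and vehicle on the log2(signal + pseudocount) scale within each couple, 1 point per member with its horizontal spread for legibility only, the median of the members as a red line, and all genes tested as dark grey (25th to 75th percentile) and light grey (5th to 95th percentile) boxes. The medians of the members are 0.11, −0.05 and 0.10. Cdc25b stands apart in couple 2 and is the highest point in couple 1, with Hmmr (0.51) close below it.

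Levels of some members also differed between couples, with treatment as a separate term of the model. A limma F test of the couple in the same model passed for 3 of the 33 members, Ccna2, Mad2l1 and Mki67, against 15.1% of all genes tested. Averaged over both samples of a couple, Mad2l1 was 0.46 higher in couple 1 than in couple 2 and 0.32 higher than in couple 3 on the log2 scale (limma adjusted p = 0.018). Ccna2 was 0.36 higher in couple 1 than in couple 3 (limma adjusted p = 0.045). Mki67 had the reverse order, 0.31 lower in couple 1 than in couple 3 (limma adjusted p = 0.038). Thus couple 1 was highest for a cyclin and a checkpoint gene and lowest for the Ki-67 gene. Without the filter, without the intensity trend or without couple 1 the F test passed in limma for 0 members, with 7, 1 and 4 at an unadjusted p under 0.05, and without couple 3 it passed for 1.

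Beyond the members, a wider list of 108 further genes of mitosis was followed, covering kinetochore and condensin subunits, cohesins, kinesins, subunits of the anaphase-promoting complex and the MuvB core. In it 95 genes could be tested, of which 93 did not pass, 1 rose and 1 fell. That is 1.05% each way, against 11.7% and 7.77% of all genes tested. Before adjustment, 7 genes of the list were higher and 10 lower at p under 0.05 in limma, against 1862 and 1641 of all 9910 genes tested. The median log2 fold change was −0.01, and values ran from −0.28 to 0.30. Pimreg, a gene known from mitotic cells, had signals of 3920.1, 3665 and 3293 with corticosterone and of 2965, 3003 and 2853 with vehicle. The groups did not overlap, and the log2 fold change was 0.30 ± 0.07 (standard error; limma adjusted p = 0.011). Ube2s, an enzyme that extends ubiquitin chains with the anaphase-promoting complex, had 7085, 6230.0 and 6178 with corticosterone and 8125, 7439 and 6836 with vehicle. It was lower in each couple, with a log2 fold change of −0.20 ± 0.06 (standard error; limma adjusted p = 0.037). Neither call held without couple 1 or 2 (limma adjusted p = 0.070 and 0.081 for Pimreg, 0.081 and 0.24 for Ube2s) or without the couple as a block (0.15 and 0.35). Pimreg also did not pass after median centring (limma adjusted p = 0.070) or without the intensity trend (0.11). Ube2s also did not pass without couple 3 (limma adjusted p = 0.069), with quantile normalization (0.0504), without the filter (0.093) or without the trend (0.21).

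The wider list showed the split between couples 2 and 3 too, while in couple 1 it was near even, unlike the members. Corticosterone signals were the higher ones for 47, 26 and 62 of its 95 genes in couples 1, 2 and 3, with median differences of −0.0049, −0.09 and 0.06. Once arrays were centred on their medians, 0 genes of the wider list rose and 13 fell, among them Ube2s, Smc2, Smc3, Cenpt, Wee1 and Lin54. These 13 are 13.7% of the list, where 18.3% of all genes tested fell under that scaling, and the median log2 fold change of all genes was then −0.11.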

How the data were processed

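MAS5 signals of 6 Affymetrix arrays were analysed. The authors deposited a linear signal intensity for every probe set, made with MAS5 per the submitters' processing notes, which name no version or setting. A trimmed mean of 500.2 on each array shows that arrays had been scaled to a common level. Per the labels' protocols, TRIzol RNA was labelled from 3 µg by oligo(dT) priming and in vitro transcription, which weights the signal towards the 3′ end.

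Of 31099 probe sets 57 are controls and were left out. Genes were named only from the 20826 probe sets with 1 symbol in the platform annotation, while 436 had several and 9780 had none. Signals were transformed to log2(signal + 28.6), the pseudocount being the 25th percentile of all values, which understates the change of low genes. Probe sets whose mean was among the lowest 40%, below a signal of 63.6, were not tested. A limma 3.58.1 model (R 4.3.3, trended eBayes) of treatment and couple was fitted to the remaining 18625, and p-values were adjusted over all of them (Benjamini-Hochberg, threshold 0.05, two-sided). The couples come from the series design text and the numbers in the titles. As a check, samples of one number deviated from their group means together, with correlations of 0.57, 0.52 and 0.35, against −0.48 to 0.0034 between samples of different numbers, where deviations that sum to 0 pull values between different numbers below 0. The brightest probe set stood for each gene. As the background signal, the 95th percentile over 27 bacterial controls with no spiked target was taken.

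All listed genes are named, and of the wider list those past the threshold. Members and lists were chosen with earlier results of these data known. Alternatives changed the scaling, the pseudocount, the filter, the trend, the block, the probe set and the couples included. The fit was tested on simulated data.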

Additional observations from a re-analysis of the deposited data

How the results depend on the processing

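The members' directions and calls were recomputed under 12 alternatives, except that Cenpa was not tested with 60% of probe sets left out and that the median over the probe sets of a gene has no test. Changing the pseudocount to 1 or to 4 times its value changed no direction and no count by more than 1.5 times. Centring each array on its median gave 1 lower member gene, a members' median of −0.062, 0 higher and 13 lower genes of the wider list and 5 members differing between couples. It turned uncalled values near 0: Ccnb1 to −0.083, Ccnb2 to −0.023, Cks2 to −0.047, Foxm1 to −0.065, Melk to −0.038, Cdc20 to −0.062, Ube2c to −0.083, Aurkb to −0.0095, Cdca8 to −0.0060, Cenpa to −0.013, Cenpf to −0.018, Kif11 to −0.019, Kif20a to −0.086 and Top2a to −0.034. Quantile normalization gave 2 higher and 0 lower genes of the wider list and turned Bub1 to 0.023, Bub1b to 0.012, Ect2 to 0.021 and Mki67 to 0.0092.

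In limma without the filter, 0 members were higher (4 at an unadjusted p under 0.05), 1862 probe sets passed in place of 2953, 0 genes of the wider list were lower and 0 members differed between couples, with more probe sets to adjust over. With 60% of probe sets left out, 2 genes of the wider list were lower. Without the intensity trend, 0 members were higher (1 before adjustment), 1262 probe sets passed, the wider list had 0 higher and 0 lower genes, and 0 members differed between couples. Counting any probe set of a gene gave 1 lower member (Mad2l1) and 7 that differed between couples, and the median over the probe sets of a gene turned the uncalled Foxm1 to −0.088. No replicate block, which ignores the pairing, gave 0 higher members (1 before adjustment), 417 probe sets and 0 higher and 0 lower genes of the wider list. The cause of these changes was not tested.

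Leaving out one couple at a time gave 0 to 1 higher members, 1192 to 2807 probe sets, 0 to 2 higher and 0 to 4 lower genes of the wider list and 0 to 2 members that differed between couples. Members whose uncalled value turned ran from −0.16 to 0.018 (Ccna2), −0.021 to 0.11 (Ccnb1), −0.11 to 0.030 (Cdk1), −0.0075 to 0.0996 (Cks2), −0.069 to 0.21 (Foxm1), −0.081 to 0.022 (Bub1), −0.061 to 0.061 (Bub1b), −0.010 to 0.13 (Cdc20), −0.0048 to 0.061 (Ube2c), −0.037 to 0.062 (Kif20a), −0.066 to 0.040 (Ect2) and −0.057 to 0.057 (Mki67). With 3 couples, changes within the printed intervals could not be resolved. Dim probe sets had wider errors, with standard errors of 0.15 for Cenpa and 0.22 for the dimmest one of Cdc20, against a median of 0.07 over the members.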
